A study of Capra hircus with 72 samples.

Results

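LIPG, ROBO4 and TM4SF18, genes linked to the vessel lining, are described in goat skeletal muscle across transport treatments. They are 3 of the 6561 genes listed in at least 1 of the 4 deposited muscle tables, and of the 7558 listed in any of the 6 deposited tables. They were taken by gene name from tables that hold only genes with an unadjusted p of 0.05 or less against control. They were thus selected on their differences from control, which are given below as a description. Refits of these differences reuse the values that chose the genes and are not tests of their own. LIPG was listed in all 4 muscle tables, ROBO4 in 3 and TM4SF18 in 1, and none of them in either blood table. Nearest to that limit were ROBO4 for 180 min in the 24H set, at 0.039, and for 30 min in the 6D set, at 0.012, in the authors' deposited tables, and unlisted entries are not analysed here.

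RNA was sequenced from muscle of intact male Spanish goats aged 8 months, which had been kept without feed overnight before the experiment. The controls were held in pens, and the other goats travelled in a livestock trailer for 30 min or for 180 min. The distances were 50 km for 30 min and 200 km for 180 min, so time and distance cannot be told apart. The deposited muscle tables come in sets marked 24H and 6D, marks that the labels do not define. With 9 libraries for each treatment in a set, the 54 libraries carry only 27 goat numbers, so the sets may share goats. The design text gives 18 goats per treatment.

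LIPG encodes endothelial lipase, a secreted phospholipase that is held at the surface of endothelial cells and acts mainly on high-density lipoprotein. It belongs to the family of lipoprotein lipase and hepatic lipase. ROBO4 encodes the roundabout receptor of endothelial cells, which is known for stabilising the vessel wall and limiting its leakiness. TM4SF18 encodes a small membrane protein of the L6 family that spans the membrane several times, a relative of the endothelial and tumour antigen TM4SF1.

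The library totals implied by the deposited FPKM values ranged from 9.45 M to 19.6 M counts, with a median of 14.1 M, where 1 M is 1000000. LIPG had between 16 and 622 raw counts per library, ROBO4 between 169 and 2164, and TM4SF18 between 18 and 231. The labelled tissue was checked on fibre genes: the 7 listed slow-fibre markers summed to 411948 to 1317617 normalized counts in the control libraries of the 30 min 24H table. The library of control goat 9 is labelled control in its title and group tag, while other fields name 180 minutes of transport. It was kept as a control, and values without it are given. Libraries with one number in both sets are not independent if they come from one goat, and p-values measure only the spread between libraries.

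LIPG (ENSCHIG00000015994, chromosome 24, 49368520 to 49422243, plus strand, 3782 bases of transcript) lay higher after transport in each of the 4 tables, by about the same factor. In the 24H set the control libraries held 41.0 to 180.0 normalized counts with a median of 88.6, against 95.2 to 619 with a median of 306 after 30 min. All 9 of the 30 min libraries lay above the control median and 8 above the highest control. The exception was goat 26, at 95.2. The log2 difference was 1.96 ± 0.35 (SE, n = 9 and 9), a 3.88-fold higher geometric mean.

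After 180 min in the same set, LIPG ranged from 89.6 to 561 normalized counts with a median of 320, beside 37.1 to 164 with a median of 81.1 in the same controls on that table's own scale. All 9 libraries again lay above the control median, and 7 above the highest control. Goats 14 and 13, at 89.6 and 130, were the low ones. The log2 difference was 1.83 ± 0.38 (SE, n = 9 and 9).

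In the 6D set, LIPG was lower in the controls and more variable in all groups. Control libraries held 15.8 to 130 normalized counts with a median of 44.5, against 28.5 to 570 with a median of 190 after 30 min, a log2 difference of 1.99 ± 0.53 (SE, n = 9 and 9). For 180 min the controls held 15.1 to 124 with a median of 42.6 and the transported goats 21.9 to 477 with a median of 188, a log2 difference of 1.90 ± 0.53 (SE, n = 9 and 9). Of the 9 transported libraries, 8 in each table lay above the control median and 7 above the highest control, so the groups overlapped through a pair of low transported libraries. Those were goats 24 and 25 after 30 min, and goats 13 and 14 after 180 min. Without control goat 9 the log2 differences of LIPG were 2.05 for 30 min and 1.93 for 180 min in the 24H set, and 1.86 and 1.77 in the 6D set.

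In the authors' deposited tables the adjusted p of LIPG was under 0.05 in all 4, which is the meaning of "called" below. It was 2.15e-07 for 30 min and 8.39e-06 for 180 min in the 24H set. In the 6D set it was 0.0066 for 30 min and 0.00143 for 180 min. The share of all adjusted genes that the authors called higher was 6.17%, 1.06%, 0.0118% and 0.431% in the same order. In the 30 min table of the 6D set LIPG was 1 of only 2 genes called higher among 16947. Since these contrasts chose the gene, nothing is read from those shares. Refitted on the listed genes with the authors' size factors, the edgeR quasi-likelihood test kept LIPG under 0.05 in the 24H set (adjusted p = 0.00714 and 0.0193) and not in the 6D set (adjusted p = 0.794 and 0.0874). DESeq2 kept it under 0.05 in all 4 (highest adjusted p = 0.00811). Both refits reuse the counts and contrasts that chose the gene, so a kept call is not separate support. The shares called higher were 0.0632%, 0.121%, 0.0% and 0.0695% with edgeR, and 5.25%, 1.02%, 0.0118% and 0.459% with DESeq2, in the same order of tables.

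FPKM values, fragment counts scaled to transcript length and library total, allow comparison between genes, and for LIPG all transported means lay above both control means. The order was 6.63 ± 3.0 FPKM after 30 min in the 24H set, 5.76 ± 2.72 after 180 min in the 24H set, 5.21 ± 3.91 after 30 min in the 6D set and 4.56 ± 2.79 after 180 min in the 6D set. The controls followed at 1.61 ± 0.80 FPKM in the 24H set and 1.14 ± 0.76 in the 6D set (SD, n = 9 in each group). Neighbours within the transported range differed by less than 1 SD, as did the control groups. The step from the lowest transported group to the highest control group was larger than the SD of either. The plot of FPKM by library shows the same values goat by goat.

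**Figure D1:**
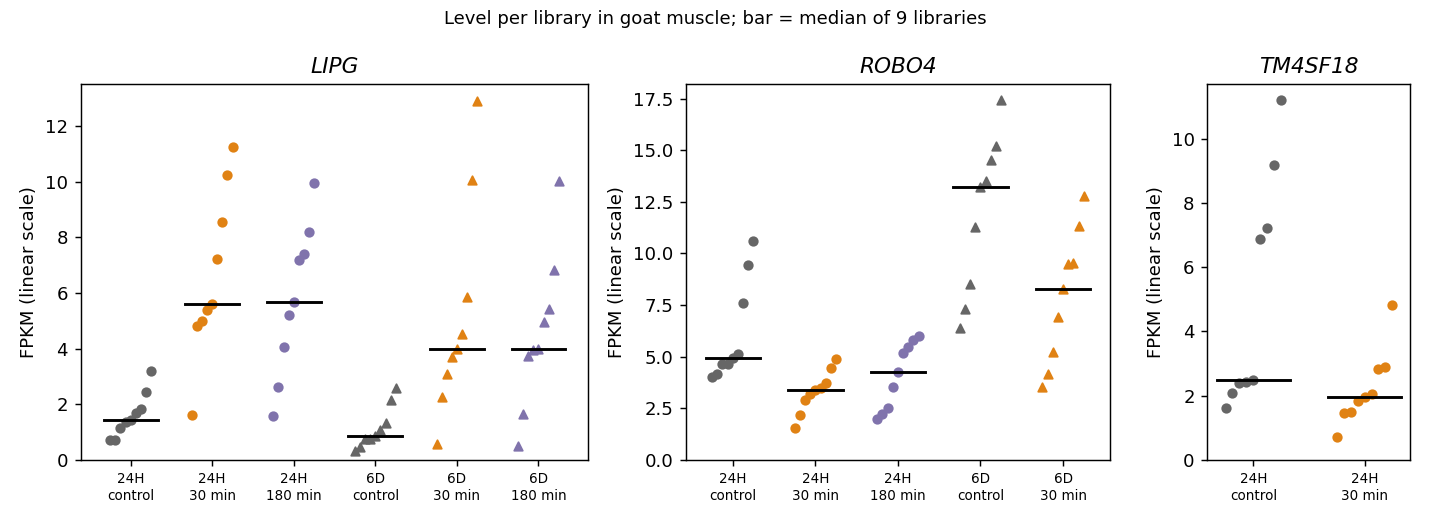
FPKM of LIPG, ROBO4 and TM4SF18 in each muscle library (y axis, linear) by set and treatment (x axis), for the groups whose table lists the gene; points are libraries and bars are medians of 9. LIPG medians were 1.43 and 0.85 FPKM in the 24H and 6D controls and between 3.97 and 5.66 in the transported groups, while ROBO4 and TM4SF18 medians were lower after transport.

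ROBO4 (ENSCHIG00000016011, chromosome 29, 27670883 to 27689419, minus strand, 7692 bases of transcript) lay lower after transport in the 3 tables that list it. In the 24H set the controls held 461 to 1296 normalized counts with a median of 585, against 170 to 562 with a median of 380 after 30 min. All 9 of the 30 min libraries lay below the control median and 7 below the lowest control, and goats 22 and 25, at 532 and 562, were the ones inside the control range. The log2 difference was -0.93 ± 0.25 (SE, n = 9 and 9). The top of the control range rested on goats 7, 9 and 6, at 1296, 1127 and 878. Without goat 9 the log2 difference was -0.84.

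After 180 min in the 24H set the shift in ROBO4 was smaller and the overlap wider. Transported libraries held 227 to 686 normalized counts with a median of 431, against 420 to 1196 with a median of 536 in controls. Only 5 of 9 lay below the control median and 4 below the lowest control. The log2 difference was -0.56 ± 0.28 (SE, n = 9 and 9).

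ROBO4 stood at higher levels in the libraries of the 6D set. Controls held 654 to 1741 normalized counts with a median of 1306, against 337 to 1173 with a median of 847 after 30 min, and all 9 transported libraries lay below the control median but only 3 below the lowest control. The log2 difference was -0.67 ± 0.28 (SE, n = 9 and 9). In FPKM the controls stood at 6.13 ± 2.46 in the 24H set and 11.9 ± 3.81 in the 6D set (SD, n = 9 each). This difference between the sets was not tested.

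ROBO4 was called lower in 1 of its 3 tables, the 30 min table of the 24H set. In the authors' deposited tables its adjusted p was 0.00708 there, 0.333 for 180 min in the 24H set and 0.508 for 30 min in the 6D set. The share of all adjusted genes called lower was 5.91%, 0.946% and 0.0059% in that order, and nothing is read from it here. With the edgeR quasi-likelihood test on the listed genes the first of these became an adjusted p of 0.0625, and with DESeq2 0.00843. The ROBO4 gene as the tables place it overlaps ROBO3, which lies on the opposite strand at 27654759 to 27677206, over 6324 bases. In the RefSeq annotation of the assembly ARS1.2 the genes do not overlap and lie 1660 bases apart. No source used here says whether reads were counted by strand, so reads in the stretch where the deposited coordinates overlap cannot be told apart. ROBO3 was listed only for 30 min in the 6D set, with 8 to 50 raw counts per library, far under the counts of ROBO4.

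TM4SF18 (ENSCHIG00000019127, chromosome 1, 118427217 to 118451302, plus strand, 1379 bases of transcript) was listed only for 30 min in the 24H set. The controls held 36.6 to 231 normalized counts with a median of 53.8, and the transported libraries 14.02 to 99.6 with a median of 39.6. The control libraries lay in a pair of separate ranges: goats 1, 9, 7 and 6 stood at 145 to 231, and the other 5 at 36.6 to 53.8. Only 6 of 9 transported libraries lay below the control median. The log2 difference was -1.05 ± 0.43 (SE, n = 9 and 9). In the authors' deposited table its adjusted p was 0.0261, where 5.91% of all adjusted genes were called lower. On the listed genes the adjusted p was 0.0726 with edgeR and 0.0276 with DESeq2. Without goat 9 the log2 difference was -0.95.

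Compared per transcript length in the 24H set, LIPG had the lowest mean of these genes in controls and the highest after 30 min, while ROBO4 stood above TM4SF18 in both groups. In controls LIPG was the lowest at 1.61 FPKM, below TM4SF18 at 5.05 ± 3.60 and ROBO4 at 6.13. After 30 min LIPG was the highest at 6.63 FPKM, above ROBO4 at 3.29 ± 1.04 and TM4SF18 at 2.22 ± 1.19 (SD, n = 9 in each group). TM4SF1, which neighbours TM4SF18 in the RefSeq annotation of the assembly ARS1.2, was listed in the same table as TM4SF18 and was not called, with a log2 fold change of -0.41 (adjusted p = 0.148) in the authors' deposited table.

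The times of transport were compared with each other, 180 min against 30 min, over the genes listed in both tables of a set. Such genes had a p of 0.05 or less against the same controls at both times, so the comparison is not free of the values that chose the genes. It leaves out TM4SF18, and ROBO4 in the 6D set. The groups compared also differ in distance, 200 km against 50 km. In the 24H set LIPG differed between 180 min and 30 min by a log2 change of -0.20 ± 0.32 (SE, 95% interval -0.88 to 0.47, edgeR adjusted p = 0.969, exact permutation p = 0.586). ROBO4 differed by 0.31 ± 0.24 (95% interval -0.19 to 0.82, edgeR adjusted p = 0.969, exact permutation p = 0.314). Among the 636 genes listed in both tables of that set 29 were called, or 4.56%, and neither gene was among them. In the 6D set LIPG differed by -0.19 ± 0.47 (95% interval -1.16 to 0.77, edgeR adjusted p = 1.00, exact permutation p = 0.826), where 0 of 352 genes, or 0.0%, were called by edgeR and 16 had an unadjusted p under 0.05. DESeq2 called 4 of those genes and limma 0. The intervals are wide: for LIPG they still hold a 180 min level up to 0.88 log2 units lower than that of 30 min in the 24H set.

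The difference between the sets is a difference of the contrasts that chose the genes, over genes listed in both sets, and is given as an estimate that supports nothing further. The effect of transport on LIPG was 0.15 ± 0.57 log2 units larger in the 6D set than in the 24H set for 30 min (SE, 95% interval -1.003 to 1.30, edgeR). For 180 min the difference was 0.15 ± 0.56 (95% interval -0.99 to 1.30). For ROBO4 after 30 min the effect in the 6D set was 0.30 ± 0.35 log2 units less negative (95% interval -0.41 to 1.02). Of the 647 genes in the 30 min comparison of sets and the 709 in that of 180 min, edgeR called 0 in each, or 0.0%, with 2 and 0 at an unadjusted p under 0.05, and DESeq2 also called 0. The sign for LIPG was not fixed, since without goat 9 the differences were -0.05 for 30 min and -0.05 for 180 min.

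**Figure D2:**
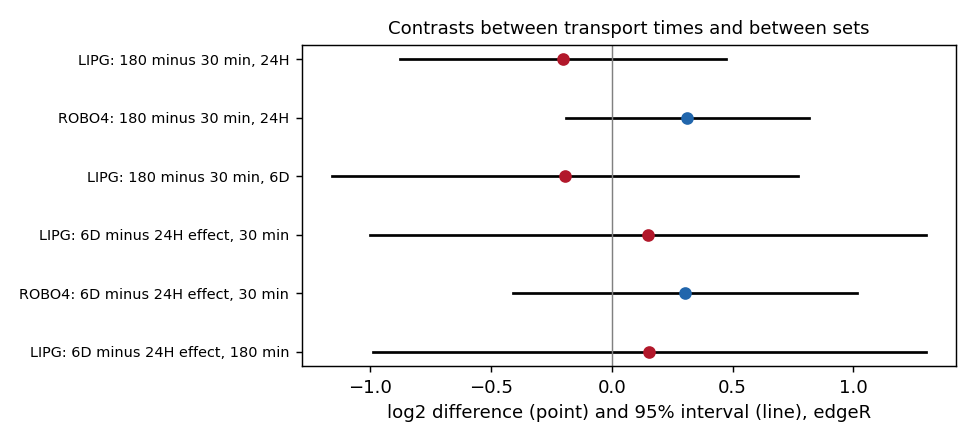
Log2 differences (points) with 95% intervals (lines) from edgeR for the contrasts between times and between sets: 180 min minus 30 min within a set, and the effect of transport in the 6D set minus that in the 24H set. All 6 intervals include 0.

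In the 30 min table of the 24H set LIPG and the listed endothelial markers lay on opposite sides of control. Of a list of 65 endothelial markers, which includes ROBO4 and TM4SF18 but not LIPG, 27 were listed. All 27 were lower than in controls and 17 were called. Of all 4125 listed genes 51.0% were lower and 747 were called lower, which is 5.91% of all adjusted genes. Apart from ROBO4 and TM4SF18, 25 markers were listed and 15 called. Their median log2 fold change in the authors' deposited table was -0.65, against -0.22 for all listed genes. The summed level of those 25 was 13351 to 27480 normalized counts in controls, with a median of 15197, and 8576 to 19404 after 30 min, with a median of 10992. The markers are background to the members, chosen with earlier results known, and no test of the list was made.

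The markers described next were the most abundant per transcript length in controls. RAMP2, the partner protein of the adrenomedullin receptor, went from 1162 ± 255 to 721 ± 297 normalized counts (SD, n = 9 each), with a log2 fold change of -0.69 in the authors' deposited table (adjusted p = 0.0172). EGFL7, a matrix protein secreted by endothelium, went from 1415 ± 468 to 770 ± 336 (log2 fold change -0.88, adjusted p = 0.0097 in the authors' deposited table). CLEC14A, CD93, ENG and ESAM, surface and junction proteins of endothelial cells, were called with log2 fold changes between -0.91 and -0.59 in the authors' deposited table. CLDN5, CAV1, CDH5, LYVE1 and TM4SF1 were listed at lower values with adjusted p between 0.0566 and 0.149, and HIGD1B, a pericyte gene, at 0.0802. In the plot of log2 differences, LIPG is the 1 gene to the right of 0.

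**Figure D3:**
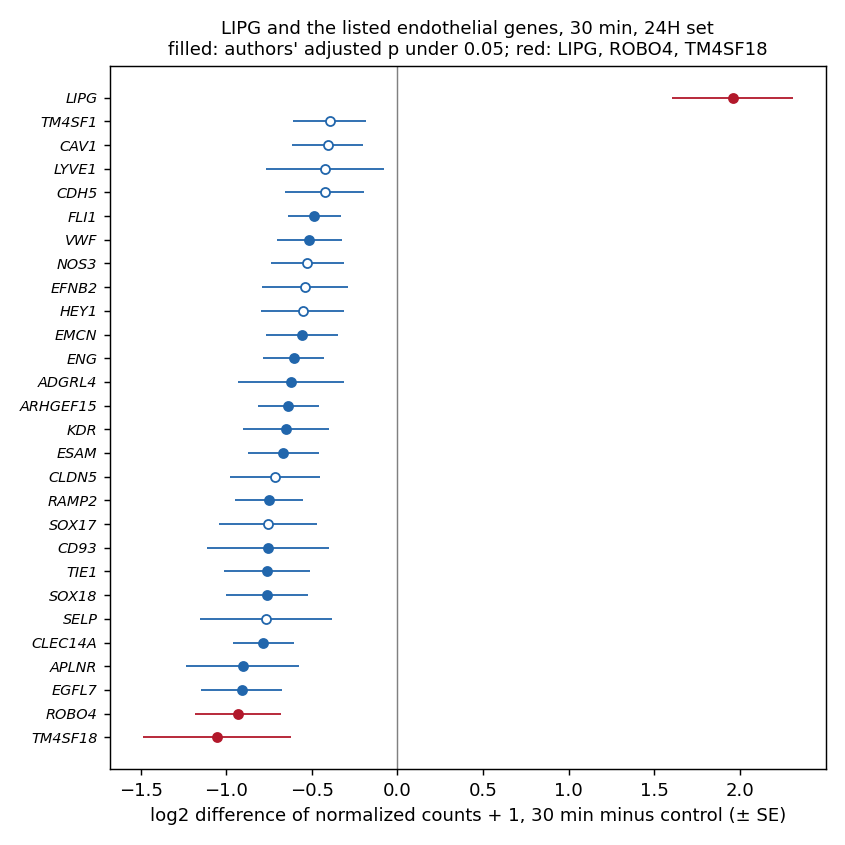
Log2 difference of normalized counts + 1 between 30 min and control in the 24H set (x axis, ± SE, n = 9 and 9) for LIPG and the 27 listed endothelial markers (y axis); filled points had an adjusted p under 0.05 in the authors' deposited table, and LIPG, ROBO4 and TM4SF18 are red. LIPG lies at 1.96 and the markers between -1.05 and -0.40.

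The calls on the markers depended on the test. edgeR with the authors' size factors called 0 of the 27, with 25 at an unadjusted p under 0.05, while DESeq2 called 17. With edgeR and 1 library left out, the count was 20 without goat 22, 17 without control goat 8, 12 without control goat 4, 3 without goat 26 and 0 without any of the other libraries. Among all 12649 adjusted genes these fits called 781, 993, 481 and 222 lower, in that order. They also called 815, 1177, 401 and 244 higher, so the calls moved across the whole table. Leaving out any of the other libraries gave 1 to 12 genes called lower. Across all adjusted genes the authors called 5.91% lower, edgeR 0.0316% and DESeq2 5.23%. Other lists moved in the same libraries: all 7 listed slow-fibre markers were lower with 3 called, and all 10 listed mitochondrially encoded genes were lower with 6 called. The slow-fibre sum was 411948 to 1317617 normalized counts in controls and 271538 to 737613 after 30 min, and the mitochondrial sum 107306 to 493227 and 60857 to 262953. Their part in the vascular result was not tested. In whole muscle, fewer endothelial cells and less RNA per endothelial cell cannot be told apart.

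In the other tables fewer markers were listed and none was called by the authors, against 0.946%, 0.0059% and 0.396% of all adjusted genes called lower. For 180 min in the 24H set 16 of 65 were listed, 15 of them lower, and the exception was MMRN1, a multimerin of vessels that was higher without being called (log2 fold change 1.10, adjusted p = 0.124 in the authors' deposited table). Of the list, 6 were listed after 30 min and 6 after 180 min in the 6D set, all lower. The medians without ROBO4 were -0.66, -0.69 and -0.69 in the order of tables used above, from the authors' deposited tables, against -0.30, -0.29 and -0.40 for all listed genes. Of the 7 listed slow-fibre markers in the 180 min table of the 24H set all were lower and 1 was called. The tables of 1 set share their controls, so these counts are not separate evidence.

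Genes of lipases, lipoproteins and their handling were listed in part. For 30 min in the 24H set the authors called 781 of the 4125 listed genes higher and 747 lower. These are 6.17% and 5.91% of all adjusted genes, and listed genes are already selected on p. Of 34 lipase and lipoprotein genes, 7 were listed there, with 4 called higher and 1 lower. The largest was NCEH1, a hydrolase of cholesterol esters, which went from 29.0 ± 17.6 to 87.3 ± 25.2 normalized counts (SD, n = 9 each; log2 fold change 1.58, adjusted p = 0.000183 in the authors' deposited table). LPL, the lipoprotein lipase of the same family, went from 855 ± 335 to 1366 ± 498 (log2 fold change 0.68, adjusted p = 0.0432 in the authors' deposited table). MGLL, a lipase of monoglycerides, was called at 0.41. SCARB1, the receptor that takes cholesterol from high-density lipoprotein, was called lower, from 175 ± 77.4 to 97.2 ± 29.4 (log2 fold change -0.85, adjusted p = 0.0196 in the authors' deposited table).

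FURIN, a proprotein convertase known to cleave endothelial lipase, was called higher in 3 of the 4 tables. Its log2 fold change in the authors' deposited tables was 0.54 for 30 min and 1.03 for 180 min in the 24H set, and 0.78 for 180 min in the 6D set. For 30 min in the 6D set it was 0.43 without being called (adjusted p = 0.508). Of these 34 genes 9, 4 and 8 were listed in the other 3 tables, with 2, 0 and 1 called. The authors called 1.06%, 0.0118% and 0.431% of all adjusted genes higher there, and 0.946%, 0.0059% and 0.396% lower. Of the 1961, 1252 and 1618 listed genes they called 149, 2 and 62 higher and 133, 1 and 57 lower. Of the 5 calls for 30 min in the 24H set edgeR kept 1, NCEH1 (adjusted p = 0.0413), and DESeq2 kept 5. In the 180 min tables edgeR kept none of the calls, FURIN included (adjusted p = 0.136 and 0.139), and DESeq2 kept them.

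Few genes of the SLIT and roundabout pathway were listed beside ROBO4. Of 20, 4 were listed for 30 min in the 24H set: ROBO4, PXN, VASP and SLIT2. The authors called 781 of the 4125 listed genes higher and 747 lower there, or 6.17% and 5.91% of all adjusted genes. PXN, the focal adhesion adaptor paxillin, was called higher at a log2 fold change of 0.46 (adjusted p = 0.0356 in the authors' deposited table, 0.0737 with edgeR). SLIT2, a secreted ligand of roundabout receptors, stood at 0.41 (adjusted p = 0.154) and VASP, a regulator of actin filaments, at -0.35 (adjusted p = 0.14), without being called. Of the 20, the other tables listed 4, 2 and 1, with 0 called. In those tables the authors called 1.06%, 0.0118% and 0.431% of all adjusted genes higher, and 0.946%, 0.0059% and 0.396% lower. So few listed genes say little about the pathway.

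Of 18 genes of the vascular growth factor and angiopoietin pathways, 6 were listed for 30 min in the 24H set, all lower, and 5 were called. Of the 4125 listed genes, already selected on p, the authors called 747 lower, which is 5.91% of all adjusted genes. KDR and TIE1 are also on the endothelial list. The called receptors were KDR, the main receptor of VEGFA, at a log2 fold change of -0.73, TIE1 at -0.85, the semaphorin receptor PLXND1 at -0.98 and its co-receptor NRP2 at -0.93 in the authors' deposited table. VEGFC, the growth factor of lymphatic vessels, was called at -0.64. It was also called for 180 min in the 6D set, from 96.8 ± 36.6 to 46.3 ± 15.9 normalized counts (SD, n = 9 each; -1.06, adjusted p = 0.00403 in the authors' deposited table). PLXND1 was called for 180 min in the 24H set, at -1.01. For 180 min in the 24H set, then 30 min and 180 min in the 6D set, 9, 3 and 5 of the 18 were listed. Of those, 1, 0 and 1 were higher without being called, and 1, 0 and 1 were called lower. Of all listed genes 133 of 1961, 1 of 1252 and 57 of 1618 were called lower. These are 0.946%, 0.0059% and 0.396% of all adjusted genes. With edgeR none of the 5 passed in the 30 min table of the 24H set (adjusted p = 0.0644 to 0.0796), nor did PLXND1 (0.139) or VEGFC (0.0874) in the 180 min tables, while DESeq2 kept each of these calls.

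Covariation within groups was measured on log2 deviations from the group means, so that the difference between control and transport was removed. The marker mean is the mean log2 level of the listed endothelial markers other than the members, 25, 15, 5 and 6 genes for 30 min and 180 min in the 24H set and then in the 6D set. It comes from the same libraries as the member. The tables of 1 set share their controls and the sets may share goats, so r values of different tables are not separate evidence. In all, 15 relations were tested. For ROBO4 and the marker mean r was 0.88 for 30 min in the 24H set (rho 0.89, n = 18, permutation p = 1e-05 for each, the smallest the permutations can give, adjusted p = 0.00015). It was 0.80 for 180 min in the 24H set (rho 0.80, permutation p = 0.00017 and 0.00018, adjusted p = 0.00085). It was 0.86 for 30 min in the 6D set (rho 0.76, permutation p = 2e-05 and 0.00044, adjusted p = 0.00015). Libraries high in the markers within their group were high in ROBO4. Without the 2 libraries farthest in ROBO4 r was 0.86, 0.74 and 0.84, and it was 0.84 to 0.95 among controls and 0.77 to 0.84 among transported goats. Control goats 6, 7 and 9 of the 24H set stood above the other controls in both ROBO4 and the marker mean. Their ROBO4 was 878 to 1296 normalized counts in the 30 min table, against 461 to 601 in the others. The r among those controls partly reflects this split, and goat 9 has the conflicting labels.

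LIPG had a negative r with the marker mean in all 4 tables, none past the threshold after adjustment. It was -0.49 for 30 min in the 24H set (rho -0.52, n = 18, permutation p = 0.0466 and 0.0352, adjusted p = 0.14). With 1 library left out, 17 of 18 fits did not pass the threshold. The exception was the fit without control goat 9, at -0.65 (adjusted permutation p = 0.0269). For 180 min in the 24H set r was -0.40 (rho -0.30, permutation p = 0.105 and 0.231). With the 6D libraries r was -0.18 (rho -0.15, permutation p = 0.451 and 0.545) for 30 min and -0.08 (rho 0.01, permutation p = 0.766 and 0.967) for 180 min. Without the 2 libraries farthest in LIPG the values were -0.48, -0.24, -0.32 and -0.09. LIPG and ROBO4 themselves had r of -0.44, -0.19 and -0.26 for 30 min and 180 min in the 24H set and 30 min in the 6D set (rho -0.44, -0.10 and -0.19, adjusted permutation p of r 0.202 to 0.557). The difference between the r of LIPG and that of ROBO4 was not tested.

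**Figure D4:**
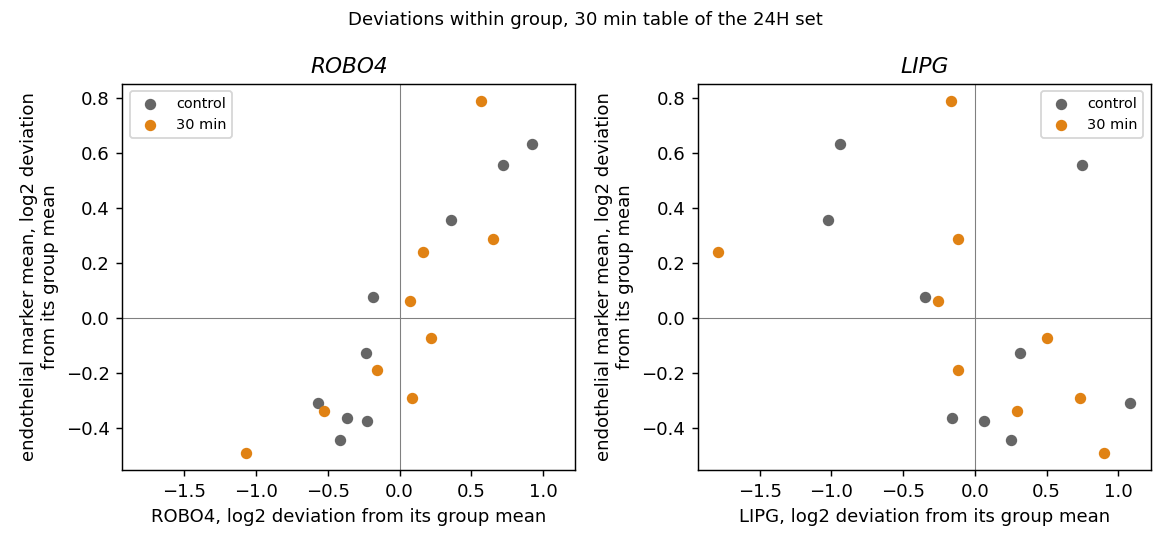
Deviation from the group mean of the endothelial marker mean (y axes, log2) against that of ROBO4 (left) and LIPG (right; x axes, log2) in the 18 libraries of the 30 min table, 24H set; colours give control and 30 min. The points of ROBO4 slope upward (r = 0.88) and those of LIPG downward (r = -0.49, not past the threshold after adjustment).

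For TM4SF18 only the 9 transported libraries were used, since the controls lay in separate ranges. Its r was 0.31 with the marker mean (rho 0.48, exact permutation p = 0.412 and 0.194), 0.27 with ROBO4 (rho 0.33, exact permutation p = 0.483 and 0.385) and -0.45 with LIPG (rho -0.67, exact permutation p = 0.216 and 0.0589). None passed adjustment over the 15 relations.

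The genes most like each member were named by r of the same deviations among listed genes that averaged 50 normalized counts or more, over 18 libraries, as a description. For ROBO4 these were SLC43A3 (r = 0.90) among 3331 genes for 30 min in the 24H set, EMCN (0.95) among 1322 for 180 min in the 24H set and CARHSP1 among 662 for 30 min in the 6D set. Of the listed endothelial markers that were ranked, 24 of 24, 11 of 11 and 5 of 5 had a positive r with ROBO4, with medians of 0.76, 0.70 and 0.67 against -0.09, 0.01 and -0.05 over all genes. For LIPG the most alike were SEC31B (0.85), RB1 (0.81), ARHGEF11 (0.80), MTM1 (0.79) and BAIAP2 (0.73) for 30 min in the 24H set. They were ELL2, MEDAG, CEBPA, ZYX and GPX3 for 180 min in that set. Among 6D libraries PDGFRA (0.88) led for 30 min and GPX3 (0.86) for 180 min. MEDAG was among the first 5 in the 180 min table of the 24H set and the 30 min table of the 6D set. None of the 24 markers had a positive r with LIPG in the 30 min table of the 24H set, where the median was -0.38 against 0.06 over all genes. For 180 min in the 24H set 2 of 11 were positive, with a median of -0.36 against 0.01. The few markers ranked in the 6D set gave 1 of 5 positive for 30 min, with a median of -0.09 against 0.04, and 1 of 3 for 180 min, with a median of -0.02 against 0.01. For TM4SF18 no such r is given, because its controls were split.

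Libraries with the same number were compared between the sets, on log2(CPM + 1), where CPM is the count scaled to the library total, with group means removed. For LIPG r was 0.45 over 27 numbers (rho 0.43, permutation p = 0.0313 and 0.0308), with an adjusted p of 0.117, which misses the threshold. It was 0.51 without the 2 farthest numbers. With 1 number left out, 26 of 27 fits did not pass the threshold. The exception was the fit without goat 26, which gave the highest r, 0.54 (adjusted permutation p = 0.022). By group r was 0.77 among the 180 min goats, 0.27 among the 30 min goats and 0.18 among controls, each over 9. Goats 13 and 14 had the lowest LIPG of the 180 min group in both sets. Goat 24, the lowest 30 min library of the 6D set at 28.5 normalized counts, stood at 277 in the 24H set, and goat 26 at 228 in the 6D set against 95.2 in the 24H set. For ROBO4 r was 0.12 over the 18 numbers of controls and 30 min goats (rho 0.16, permutation p = 0.653 and 0.529), with -0.34 among the 30 min goats and 0.67 among controls, and 0.39 without the 2 farthest numbers.

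**Figure D5:**
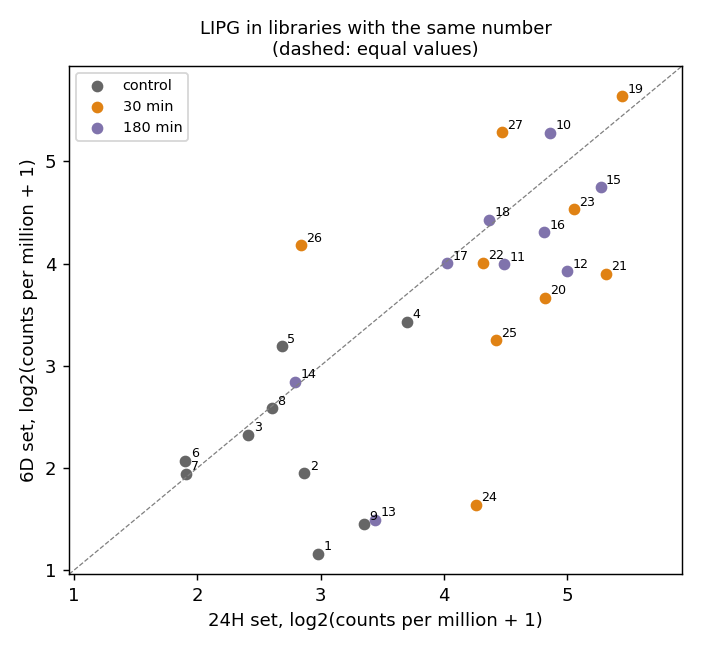
LIPG as log2(CPM + 1) in the 24H set (x axis) and the 6D set (y axis) for libraries with the same goat number, coloured by treatment; the dashed line marks equal values. Goats 13 and 14 are low in both sets among the 180 min goats, and goats 24 and 26 lie far from the line.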

How the data were processed

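Muscle RNA was made with an RNeasy Fibrous Tissue kit and sequenced from NEBNext Ultra libraries, per the labels' protocols. No source used here names the aligner, the counter, the build or the annotation, and coordinates are those of the tables. Raw counts per gene were deposited as whole numbers. The authors also deposited normalized counts, a signal equal to the counts divided by 1 size factor per library and table, and FPKM. Per the file headers, the tables also give the authors' log2 fold change, p-value and adjusted p-value. Every deposited muscle table held only genes with a p-value of 0.05 or less. The number of genes that the authors adjusted was worked out from their p and adjusted p, and refits of control contrasts were adjusted over that number.

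Groups came from the titles and group tags. Levels are log2(normalized count + 1). The tests used raw counts with the library totals implied by FPKM in edgeR 4.0.16 (quasi-likelihood), with DESeq2 1.42.0 and limma 3.58.1 as alternatives, Benjamini-Hochberg adjustment over all genes tested and a threshold of 0.05. edgeR was tested on simulated data before use. Correlations used 100000 permutations within groups, or all of them for 9 libraries. The members, gene lists and tests were chosen with earlier results of these data known, and the correlations with the marker mean and between sets, and the refits of pathway genes, were added after seeing the data. Genes beside the members were named by level in controls among the vascular lists, by an adjusted p under 0.05 in the pathway lists, or by likeness; MMRN1, SLIT2, VASP and ROBO3 were named after their values were seen. A further gene that met this rule is not reported here. Libraries with the same number deviated together for 180 min: in 18 of 18 numbers of controls and 180 min goats the correlation between sets over 709 genes was above 0.1 (median 0.60). scipy 1.17.1, pandas 2.3.3 and numpy 2.4.6 ran under Python 3.11.15, and the fits under R 4.3.3.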

Additional observations from a re-analysis of the deposited data

How the results depend on the processing

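Of 53 results recomputed, the 8 levels of members against control kept their direction under the other pseudocounts, CPM scaling and each library left out, from 1.70 to 2.32 for LIPG, -1.01 to -0.44 for ROBO4 and -1.21 to -0.87 for TM4SF18. The set differences of LIPG reversed without control goat 9, to -0.052 for 30 min and -0.046 for 180 min, and for 180 against 30 min in the 6D set leaving out 1 library gave -0.43 to 0.098, positive only without 30 min goat 19. For 180 against 30 min the range in the 24H set was -0.34 to -0.07 for LIPG, 0.22 to 0.40 for ROBO4 and 20 to 35 genes called. In the 6D set the genes called were 0 with edgeR, 3 with TMM scaling, 4 with DESeq2, 3 after genes averaging under 10 counts were left out, and 0 to 5 with 1 library left out (5 without 180 min goat 15, 2 without 180 min goat 16 or 30 min goat 22, and 1 without 30 min goat 20 or 24 or 180 min goat 12). The endothelial markers called lower for 30 min in the 24H set were 17 by the authors, 0 with edgeR and 0 to 20 with edgeR and 1 library left out. The fits with 1 library left out called 1 to 993 of all adjusted genes lower. Of the 16 calls on pathway genes beside the members, edgeR kept 1 and DESeq2 16, all in the same direction. The cause was not tested. The refits reuse the values that gave the calls, so a kept call is not separate support.

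With 1 library left out, r of ROBO4 with the marker mean was 0.86 to 0.91, 0.75 to 0.85 and 0.84 to 0.89 in its tables. For LIPG it was -0.65 to -0.41, -0.54 to -0.31, -0.33 to -0.01 and -0.20 to 0.036 (positive without 180 min goat 18 or control goat 4), and between sets 0.38 to 0.54. LIPG with ROBO4 gave -0.59 to -0.33, -0.32 to -0.06 and -0.43 to -0.07. TM4SF18 gave -0.021 (without goat 25) to 0.54 with ROBO4, 0.19 to 0.48 with the marker mean and -0.54 to -0.41 with LIPG. ROBO4 between sets gave 0.01 to 0.39.

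With goat number as a replicate block, the set differences were 0.00 for LIPG and 0.23 for ROBO4 after 30 min and 0.09 for LIPG after 180 min, and no call changed. For 30 min the numbers paired less clearly: 15 of 18 had a correlation above 0.1, and 11 matched their own number best. TMM scaling moved the set difference of ROBO4 to 0.51. The deposited tables hold selected genes, so dispersions in edgeR and DESeq2 were estimated on those alone, and unlisted markers have no value here.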

Other observations

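Of 10 slow-fibre markers, 7 were listed in each table of the 24H set, as given above. The cell-type lists other than endothelial and slow-fibre had at most 6 genes listed in a muscle table. Of 16 mural markers, genes of pericytes and smooth muscle, 4 were listed for 30 min in the 24H set, all lower, and only NOTCH3 was called, from 627 ± 176 to 401 ± 131 normalized counts (SD, n = 9 each). Of 11 macrophage markers, 3 were listed there: CD68 was called lower, and CD163 and MRC1 were higher without being called. Of 10 fast-fibre markers, 3 were listed there with 1 called lower. Of 6 Schwann cell markers, 1 was listed there and was called higher. The authors called 781 of the 4125 listed genes higher and 747 lower there, or 6.17% and 5.91% of all adjusted genes. For 180 min in the 24H set the 1 listed macrophage marker was CD163, a scavenger receptor of haemoglobin. It was called higher at a log2 fold change of 1.53 in the authors' deposited table. There 149 of the 1961 listed genes, or 1.06% of all adjusted genes, were called higher. For 30 min in the 6D set 6 macrophage markers were listed, all lower with 0 called by the authors. No library of any group stood apart from the other 8 in the FPKM of LIPG, ROBO4 or TM4SF18 by the gap to its neighbour relative to the range of its group.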
